A study of Mus musculus with 10 samples.

Results

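Chromatin remodelers move or eject nucleosomes with the energy of ATP, and histone modifiers write, remove or read chemical marks on histone tails. Genes of both kinds were taken from the Affymetrix MOE430A platform, on which sets of short oligonucleotide probes, the probe sets, each read a transcript. The members were the probe sets whose single annotated symbol started with Smarc, Setd, Kdm, Cbx, Hdac plus a digit or Chd plus a digit, or was Ezh1, Ezh2, Suz12 or Eed. Kdm5c, Kdm5d and Kdm6a, which lie on the sex chromosomes, were left out with their 7 probe sets. The choice by symbol gave 97 probe sets of 53 genes, among 22626 probe sets of 12393 genes. After a filter on low intensity, 68 member probe sets of 45 genes could be tested.

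RNA came from brains of the inbred mouse strain C57BL/6, and the labels name no other genotype and no treatment. There were 4 arrays at 8 weeks of age, 2 labelled female and 2 labelled male, and 6 arrays at 1 week, 3 labelled female and 3 labelled male. The labels do not state that the brains of a group came from separate animals, so p-values measure the spread between these samples, which may be technical. The RNA came from many cell types at once, so fewer cells of a type and less RNA per cell cannot be told apart in any value below.

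Many proteins of these gene families work in complexes. The Polycomb repressive complex PRC2 methylates histone H3 through Ezh1 or Ezh2, and chromodomain proteins of the Cbx family read such marks. Histone deacetylases of the Hdac family remove acetyl groups, while Kdm enzymes remove methyl groups and several Setd proteins add them. The BAF complex, which holds several of the Smarc proteins, exchanges subunits as neural progenitors stop dividing and become neurons. Chd proteins are another family of ATP-driven remodelers.

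Trimmed mean intensities of the arrays were 256 to 319 at 8 weeks and 139 to 237 at 1 week, and all values below are after quantile normalization. Transcripts of the sex chromosomes opposed the label on 4 of the 6 arrays at 1 week (female 1 and 2, male 2 and 3), and the array of female 3 carried both patterns, so the label is not read as sex at 1 week. Without the 4 opposed arrays, with age alone in the model, 12 member probe sets rose and 15 fell, against 14 and 22 with all arrays, while counts over all 13576 probe sets were 2069 and 1973, against 2993 and 3253. Of the member genes called with all arrays, Cbx5, Kdm5b, Setd6 and Setdb1 lost their calls in that fit (limma, adjusted p = 0.0643, 0.258, 0.367 and 0.0903). Markers of dividing cells summed to 1316 to 1537 at 8 weeks and 3153 to 4622 at 1 week, and 10 of 11 tested fell. Among these Mcm6, Cdk1, Top2a and Rrm2 averaged 17.5, 22.6, 29.9 and 47.6 at 8 weeks and were tested because of their levels at 1 week. Of the markers too dim to test, Mki67, Birc5 and Ccnb2 averaged 11.2 or less at 8 weeks and were higher at 1 week. Tyms, also too dim, averaged 15.2 at both ages. Those of immature neurons summed to 4404 to 5487 at 8 weeks and 13924 to 17177 at 1 week, with 6 of 7 lower. Mature neuron markers summed to 13607 to 15008 at 8 weeks and 8198 to 10819 at 1 week, with 6 of 7 higher, and oligodendrocyte markers to 13322 to 17242 at 8 weeks and 2228 to 10364 at 1 week, with 4 of 5 higher. Markers of neural progenitors (4 of 6) and endothelium (3 of 5) fell, and those of astrocytes (3 of 6), microglia (6 of 6), cerebellar granule cells (3 of 4) and pituitary (2 of 3) rose. Sox11 of immature neurons and Cdh5 of endothelium, at 26.6 and 71.0 at 8 weeks, were also tested because of their levels at 1 week. Camk2a, Gabra6, Cbln3 and Prl, at 45.1, 65.3, 49.8 and 11.5 at 1 week, were tested because of their levels at 8 weeks. The part of these marker shifts in the changes of single genes was not tested. Replicate 1 of either label at 1 week had the lowest oligodendrocyte sums, 2228 and 3070, and without both arrays, with age alone in the model, 13 member probe sets rose and 23 fell, and 2870 and 2980 of all probe sets.

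At 8 weeks 14 of the 68 member probe sets were higher and 22 were lower than at 1 week, in a limma fit of all probe sets at a Benjamini-Hochberg adjusted p under 0.05. Among all tested probe sets 46% passed in either direction, 22% higher and 24% lower, and the members' shares were 52.9%, 20.6% and 32.4%. Taken by gene, each read by its brightest probe set, 7 rose, 16 fell and 22 did not pass of 45, where 21.9% of all genes were higher and 24% were lower and 45.9% passed. The median log2 change was -0.11 over the 45 genes and -0.020 over all 8148 genes, and the median size was 0.32 and 0.25 regardless of sign. The ages did not overlap for 21 of the 45 genes (46.7%), against 35.9% of all genes. On the scale of log2(value + 24), the called genes held 1 rise of at least 2-fold, of Kdm7a (2.22% of 45, against 3.07% of all genes), and 2 such falls, of Kdm2b and Smarce1 (4.44%, against 2.77% of all genes). The mean intensities of Ezh2, Hdac2 and Smarca1, with no pseudocount, were more than 2-fold lower as well. Log2 changes of the 22 genes that did not pass ranged between -0.32 and 0.28. The split of directions depends on the scaling. Without normalization 35 member probe sets were higher and 6 lower, where the median of all probe sets shifted to 0.47 and that of the members to 0.37. With arrays scaled to 9 spike-in controls 13 were higher and 8 lower, with medians of 0.14 for all probe sets and 0.045 for the members. With arrays scaled to their medians the counts were 14 and 21.

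**Figure D1:**
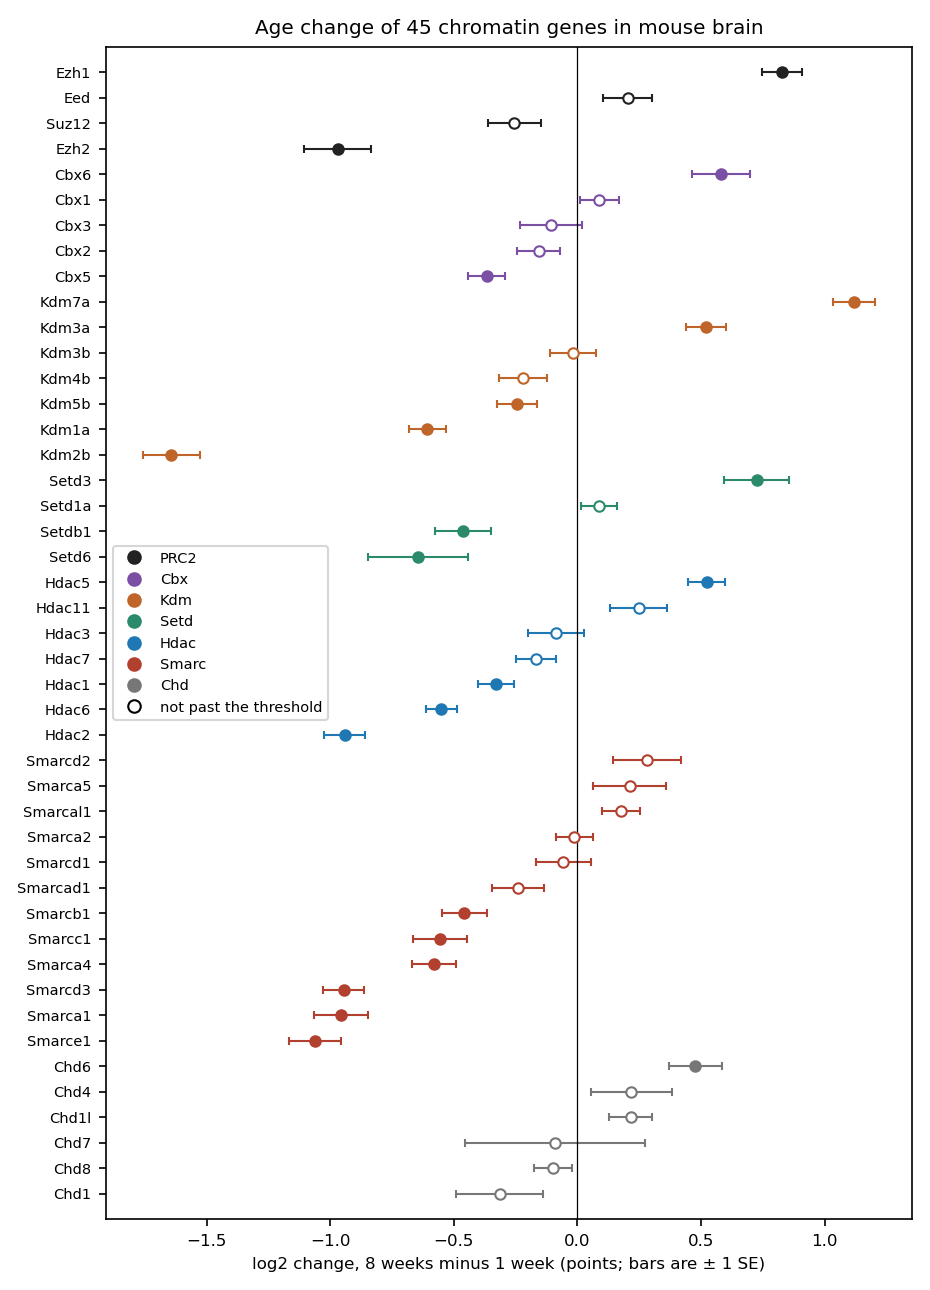
Log2 change at 8 weeks against 1 week (x axis, log2 of normalized intensity plus a pseudocount of 24) with its standard error for each of the 45 tested genes, grouped by family down the page. Kdm2b lies furthest left at -1.64 and Kdm7a furthest right at 1.12, and the Smarc family has no gene past the threshold on the right.

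PRC2 holds a single catalytic subunit at a time, Ezh2, the form typical of dividing cells, or Ezh1, its paralog that is also present in cells that no longer divide. Ezh2 (chromosome 6) read 56.2, 50.4, 58.2 and 62.3 on the 4 arrays at 8 weeks, in the order female 1, female 2, male 1, male 2, while the lowest, median and highest at 1 week were 96.7, 138 and 171. Every 8-week array lay below every 1-week array. The log2 change was -0.97 ± 0.13 (SE; limma, adjusted p = 0.000246). Its 8-week mean lay under the dimmest mean kept by the filter, 73.9, so Ezh2 could be tested because of its level at 1 week, and the pseudocount makes its log2 change smaller than the ratio of the intensities. Ezh1 (chromosome 11) read 270.1, 271, 254 and 295 at 8 weeks, in the same order, and 132, 141 and 157 as lowest, median and highest at 1 week. All 8-week arrays were above all 1-week arrays, with a log2 change of 0.83 ± 0.081 (limma, adjusted p = 2.79e-05). A second Ezh1 probe set moved the same way, by 0.65 ± 0.10. The change of Ezh1 minus that of Ezh2 within arrays was 1.80 ± 0.12 (SE), and the 2 ages did not overlap (two-sided exact permutation test, p = 0.00476, the smallest that 210 assignments allow, adjusted p = 0.00714 over 12 pairs). The difference was 1.88 without normalization and 1.83 with spike-in scaling. Dividing-cell markers fell as Ezh2 did, and their part in its fall was not tested.

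**Figure D2:**
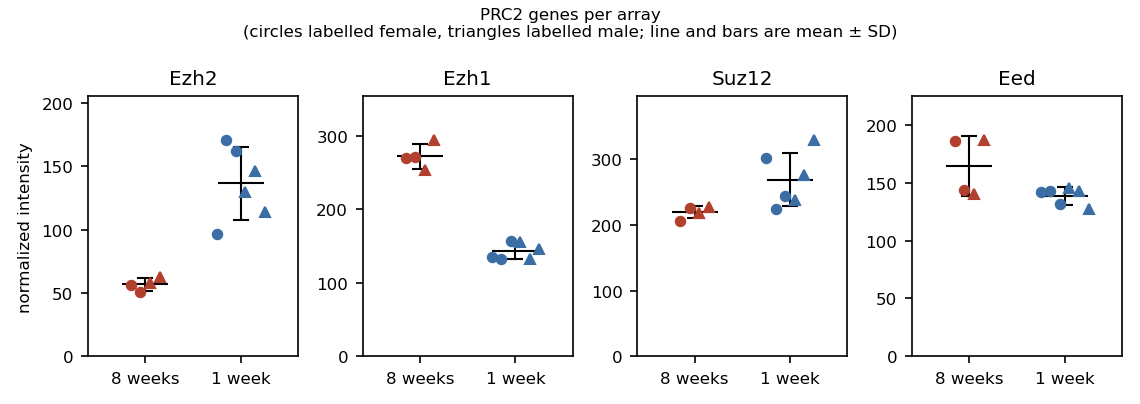
Normalized intensity (y axis, linear from 0) of the 4 PRC2 genes on each array, with 8 weeks left and 1 week right, circles for arrays labelled female, triangles for those labelled male, and lines for mean ± SD. Ezh2 sits at 50.4 to 62.3 at 8 weeks and 96.7 to 171 at 1 week, while Ezh1 lies in the opposite order.

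Eed, which binds the methylated histone and stimulates the enzyme, and Suz12, a scaffold of the complex, did not pass on their brightest probe sets. Eed read 186, 143, 139.8 and 187 at 8 weeks and 127, 142 and 145 (lowest, median, highest) at 1 week, so its ages overlapped (limma, adjusted p = 0.122). Suz12 read 206, 225, 218 and 227 at 8 weeks and 225, 259 and 329 at 1 week on the brightest probe set, with a log2 change of -0.26 ± 0.11 (limma, adjusted p = 0.0747). The 2 dimmer Suz12 probe sets were higher at 8 weeks, by 0.31 ± 0.10 and 0.30 ± 0.086, both past the threshold. The dimmest of the tested Suz12 probe sets, at 0.30, averaged 71.65 at 1 week, under the dimmest kept mean. It was tested because of its level at 8 weeks, and lost its call without the arrays that oppose their label (limma, adjusted p = 0.129). Sign and call therefore depend on which Suz12 probe set is read.

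The 250 bases before the start of Ezh2 and Ezh1, the pair whose changes lay furthest apart, and of Kdm7a are shown to compare their base composition, from RefSeq (build GRCm38.p6), 5' to 3' on the gene's strand, with CG dinucleotides in capitals. Ezh2 lies at chr6:47595031-47595280 on the minus strand, with 23 CG and 63.6% G or C. Ezh1 lies at chr11:101226464-101226713 on the minus strand, with 14 CG and 55.2% G or C. Kdm7a, the largest rise among the 45 genes, lies at chr6:39206774-39207023 on the minus strand, with 56 CG and 82% G or C.
Ezh2: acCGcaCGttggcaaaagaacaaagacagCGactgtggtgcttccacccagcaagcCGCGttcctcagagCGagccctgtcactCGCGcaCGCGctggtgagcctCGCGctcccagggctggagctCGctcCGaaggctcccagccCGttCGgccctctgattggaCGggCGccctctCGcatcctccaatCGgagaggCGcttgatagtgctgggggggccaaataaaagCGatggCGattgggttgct
Ezh1: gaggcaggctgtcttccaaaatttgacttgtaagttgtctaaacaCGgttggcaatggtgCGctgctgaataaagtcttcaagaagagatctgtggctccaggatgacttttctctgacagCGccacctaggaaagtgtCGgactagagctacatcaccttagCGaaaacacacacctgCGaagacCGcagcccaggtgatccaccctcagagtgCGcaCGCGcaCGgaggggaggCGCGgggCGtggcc
Kdm7a: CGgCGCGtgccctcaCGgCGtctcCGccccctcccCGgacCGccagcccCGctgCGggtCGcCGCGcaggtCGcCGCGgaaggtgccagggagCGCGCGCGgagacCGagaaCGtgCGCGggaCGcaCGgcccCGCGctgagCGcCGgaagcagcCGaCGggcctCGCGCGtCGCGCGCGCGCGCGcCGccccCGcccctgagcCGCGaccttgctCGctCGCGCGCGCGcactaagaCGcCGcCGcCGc
The E2F motif GCGGGAA (other strand TTCCCGC), searched on both strands because E2F factors govern many cell-cycle genes, was in none of these 3 windows. It was in those of 3 of the 44 member genes with a window (6.82%: Smarcb1, Smarcd1 and Suz12, named after the search) and in 4.38% of the 27025 genes of the promoter table. These counts describe letters in a window and not a binding site. The median number of CG in the window was 21 over the 44 member genes and 6 over the whole table. The whole table also holds genes outside the 8148 tested, and the tested genes were not compared on their own. Neither the motif share nor the CG number is therefore read as particular to the members.

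Kdm2b, a demethylase that also carries a variant of PRC1, the companion Polycomb complex, to unmethylated CpG islands, showed the largest fall. It read 135, 135, 122 and 198 at 8 weeks and 462, 513 and 541 (lowest, median, highest) at 1 week, with no overlap, for a log2 change of -1.64 ± 0.12 (limma, adjusted p = 3.63e-06). The array of male 2 was the highest of the 4 at 8 weeks. Kdm1a, the flavin-dependent demethylase of CoREST complexes, fell as well. It averaged 403 ± 8.95 at 8 weeks and 628 ± 50.3 at 1 week (SD, n = 4 and 6), a log2 change of -0.61 ± 0.076 (limma, adjusted p = 0.000121), and -0.50 ± 0.088 on a second probe set, and its call was lost without normalization and with spike-in scaling. Kdm5b, a demethylase that removes activating marks of H3, changed by -0.25 ± 0.082 (limma, adjusted p = 0.0311) with overlapping ages on the brightest probe set, and the call was lost on leaving out any of 7 single arrays (female 1 and 2 and male 2 and 3 at 1 week, female 2 and male 1 and 2 at 8 weeks; adjusted p = 0.0503 to 0.140). Its second probe set did not overlap between ages, at -0.42 ± 0.11 (limma, adjusted p = 0.0104).

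Kdm7a, a demethylase of repressive H3 marks that is studied in neural development, went the other way. It read 141, 152, 127 and 159 at 8 weeks and 44.4, 54.3 and 61.2 at 1 week, with every 8-week array above every 1-week array and a log2 change of 1.12 ± 0.087 (limma, adjusted p = 6.26e-06). Its 1-week mean lay under the dimmest kept mean, so its rise, like the fall of Ezh2, rests on the brighter age. Kdm3a, an H3 demethylase, rose to 265 ± 9.08 at 8 weeks, against 178 ± 18.3 at 1 week (SD, n = 4 and 6; log2 change 0.52 ± 0.081, limma adjusted p = 0.000529). Its paralog Kdm3b averaged 541 ± 46.7 at 8 weeks and 549 ± 55.6 at 1 week, with overlapping arrays and no call. The changes of Kdm3a and Kdm3b differed by 0.54 ± 0.10 (exact permutation test, two-sided, p = 0.00476, adjusted p = 0.00714). Kdm4b, at -0.22 ± 0.10, did not pass either. In all, 2 of 7 tested Kdm genes rose and 3 fell, where 21.9% of all genes rose and 24% fell.

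Among deacetylases, Hdac1, Hdac2 and Hdac6 fell, Hdac5 rose, and Hdac3, Hdac7 and Hdac11 did not pass on their brightest probe sets. Hdac1 and Hdac2 are close paralogs that share the NuRD, Sin3 and CoREST complexes. Hdac2 read 90.8, 92.5, 81.5 and 106 at 8 weeks and 181, 198 and 219 (lowest, median, highest) at 1 week, with no overlap and a log2 change of -0.94 ± 0.084 (limma, adjusted p = 1.48e-05). Hdac1 read 245, 257, 263 and 239.7 at 8 weeks and 302, 321 and 346 at 1 week, also with no overlap, for -0.33 ± 0.073 (limma, adjusted p = 0.00434). Both therefore fell, and the change of Hdac1 minus that of Hdac2 was 0.61 ± 0.09 (exact permutation test, two-sided, p = 0.00476, adjusted p = 0.00714). Hdac6, an X-linked deacetylase of tubulin in the cytoplasm, averaged 349.8 ± 11.1 at 8 weeks and 524 ± 24.6 at 1 week, a log2 change of -0.55 ± 0.064 (limma, adjusted p = 7.47e-05). Hdac1 and Hdac6 lost their calls without normalization and with spike-in scaling, and Hdac1 turned to 0.18 without normalization, under the median shift of 0.47.

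Hdac5, a class IIa deacetylase that shuttles between nucleus and cytoplasm in response to calcium signals, read 855, 982, 874 and 864 at 8 weeks and 542, 623 and 680.3 at 1 week. Its log2 change was 0.52 ± 0.076 (limma, adjusted p = 0.000341) and the ages did not overlap. Hdac7, of the same class, averaged 246 ± 29.5 at 8 weeks and 279 ± 19.3 at 1 week, and the changes of Hdac5 and Hdac7 differed by 0.69 ± 0.13 (exact permutation test, two-sided, p = 0.00476, adjusted p = 0.00714). Hdac11, a deacetylase abundant in brain, was not past the threshold on its brightest probe set (0.25 ± 0.12, limma adjusted p = 0.107) and was on a dimmer one (0.37 ± 0.13, limma adjusted p = 0.0387). Hdac3, the deacetylase of NCoR complexes, overlapped between ages.

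None of the 12 tested Smarc genes rose on the brightest probe set, and 6 fell (all genes, 21.9% and 24%): Smarce1, Smarca1, Smarcd3, Smarca4, Smarcc1 and Smarcb1. Smarca2, Smarca5, Smarcad1, Smarcal1, Smarcd1 and Smarcd2 did not pass. Smarce1, Smarca1 and Smarcd3 kept their calls under all 3 other scalings, whereas Smarca4, Smarcc1 and Smarcb1 kept theirs under median scaling and lost them without normalization and with spike-in scaling, and Smarcb1 turned to 0.066 without normalization. Markers of dividing cells and of immature neurons fell on the same arrays, and their part in these falls was not tested. Smarce1, a DNA-binding subunit of BAF, read 149, 191, 176 and 182 at 8 weeks and 325, 404 and 444 (lowest, median, highest) at 1 week, a log2 change of -1.06 ± 0.11 with no overlap (limma, adjusted p = 3.01e-05), and -0.72 ± 0.10 on a second probe set. Smarcd3, 1 of 3 alternative BAF60 subunits, read 517, 460.2, 460.4 and 504 at 8 weeks and 826, 992 and 1048 at 1 week, with no overlap and a log2 change of -0.95 ± 0.084 (limma, adjusted p = 1.41e-05). Smarcd1, another BAF60 form, overlapped between ages, and its change exceeded that of Smarcd3 by 0.89 ± 0.13 (exact permutation test, two-sided, p = 0.00476, adjusted p = 0.00714). Smarcd2 also overlapped on its brightest probe set (0.28 ± 0.14, limma adjusted p = 0.125), while a dimmer one changed by 0.98 ± 0.26 (limma, adjusted p = 0.0111).

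The BAF motor is Smarca4 or its paralog Smarca2. Smarca4 read 817, 864, 838 and 929.9 at 8 weeks and 1085, 1352 and 1398 (lowest, median, highest) at 1 week, with no overlap and a log2 change of -0.58 ± 0.09 (limma, adjusted p = 0.000516), and a second probe set changed by -0.46 ± 0.11. Smarca2 averaged 298 ± 17.8 at 8 weeks and 301 ± 23.4 at 1 week (log2 change -0.013 ± 0.076), whereas its second probe set rose by 0.41 ± 0.12 (limma, adjusted p = 0.0163). The change of Smarca2 minus that of Smarca4 was 0.57 ± 0.09 on the brightest probe sets (exact permutation test, two-sided, p = 0.00476, adjusted p = 0.00714). The core subunits Smarcc1 and Smarcb1 fell by 0.55 and 0.46 on the log2 scale, although a second Smarcc1 probe set did not pass (-0.078 ± 0.09). Smarca1 and Smarca5 are motors of ISWI remodelers, which space nucleosomes, and their changes differed. X-linked Smarca1 read 143, 148, 138 and 95.9 at 8 weeks and 238, 268 and 351 at 1 week, with no overlap and a log2 change of -0.96 ± 0.11 (limma, adjusted p = 7.75e-05). Smarca5 averaged 469 ± 32.4 at 8 weeks and 409 ± 84.4 at 1 week, with overlapping arrays and no call, and the change of Smarca1 minus that of Smarca5 was -1.17 ± 0.17 (exact permutation test, two-sided, p = 0.00476, adjusted p = 0.00714).

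**Figure D3:**
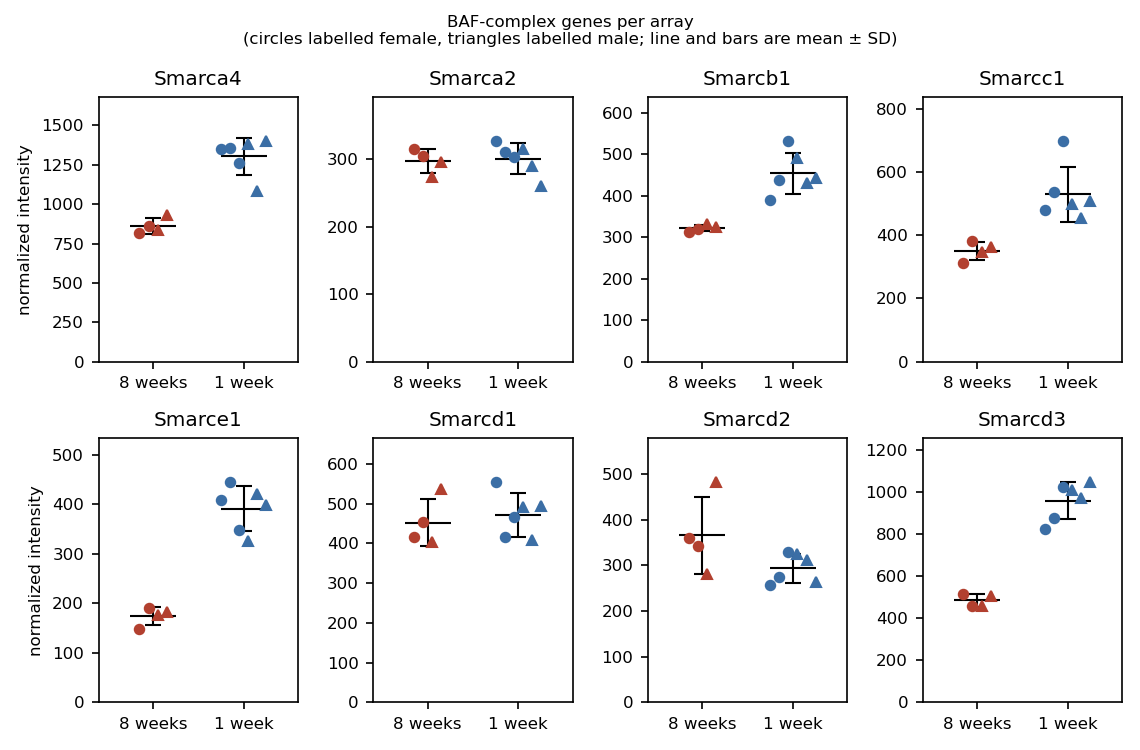
Normalized intensity (y axis, linear from 0) of 8 BAF genes on each array, 8 weeks left and 1 week right, circles for arrays labelled female, triangles for those labelled male, and lines for mean ± SD. Smarca4, Smarcb1, Smarcc1, Smarce1 and Smarcd3 lie lower at 8 weeks with no overlap, while Smarca2, Smarcd1 and Smarcd2 overlap.

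Of the chromodomain readers, Cbx6, a PRC1 subunit, rose. It read 1558, 1514, 1458 and 1517 at 8 weeks and 893, 933 and 1320.4 (lowest, median, highest) at 1 week, with no overlap and a log2 change of 0.58 ± 0.12 (limma, adjusted p = 0.00245). Cbx2, also a PRC1 subunit, did not pass (-0.16 ± 0.087). Cbx1, Cbx3 and Cbx5 encode the heterochromatin proteins that bind methylated H3. Cbx5 fell on its brightest probe set (-0.37 ± 0.075, limma adjusted p = 0.00266) and rose on another (0.44 ± 0.10, limma adjusted p = 0.00625), so its direction is not settled by these arrays, and the call of the fall was kept under median scaling but lost without normalization, with spike-in scaling and without the arrays that oppose their label. Cbx1 minus Cbx5 differed in change by 0.46 ± 0.07 on the brightest probe sets (exact permutation test, two-sided, adjusted p = 0.00714), but by 0.03 (adjusted p = 0.894) with each gene's probe sets averaged. Cbx3 minus Cbx5, at 0.26 ± 0.15, and Cbx1 minus Cbx3, at 0.20 ± 0.19, did not pass (exact permutation tests, adjusted p = 0.189 and 0.436).

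Of 4 tested Setd genes 1 rose and 2 fell, and of 6 tested Chd genes 1 rose and 0 fell, families too small to set against the 21.9% and 24% of all genes. Setd3, which methylates actin, rose to 865 ± 190.1 at 8 weeks against 509.8 ± 76.7 at 1 week (SD, n = 4 and 6; log2 change 0.73 ± 0.13, limma adjusted p = 0.00136), with female 2 the highest at 8 weeks. Setdb1, a methyltransferase of heterochromatin, changed by -0.46 ± 0.11 (limma, adjusted p = 0.00734) and a second probe set by -0.14 ± 0.071, which did not pass. The Setdb1 call was lost without normalization and with spike-in scaling. Setd6, which methylates non-histone proteins, changed by -0.65 ± 0.20 (limma, adjusted p = 0.0239) with overlapping ages, and lost its call when any 1 of 4 arrays was left out (female 2 at 1 week, female 2, male 1 or male 2 at 8 weeks; adjusted p = 0.0526 to 0.0973). Setd1a, a writer of activating H3 marks, did not pass. Chd6 averaged 229.9 ± 16.7 at 8 weeks and 159.7 ± 25.3 at 1 week with no overlap, a log2 change of 0.48 ± 0.11 (limma, adjusted p = 0.00494). Chd1, Chd1l, Chd4, the motor of NuRD, and Chd8, a gene linked to autism in humans, did not pass.

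Chd7, a remodeler needed by granule neuron precursors of the mouse cerebellum, had the widest standard error of the 45 genes. It read 110.4, 130.2, 69.0 and 231 at 8 weeks and 58.2, 152 and 225 (lowest, median, highest) at 1 week, and its log2 change was -0.09 ± 0.36. Markers of cerebellar granule cells summed to 4281, 4086, 1513 and 7198 on the same 4 arrays at 8 weeks, in the order female 1, female 2, male 1, male 2. Male 1 was lowest and male 2 highest in both. The sums of other Polycomb genes (6651 and 6967) and of other ATPase remodelers (3533 and 4025), lists given below, had the same lowest and highest arrays. The sums of the other cell types did not. At 1 week the lowest Chd7 arrays were male 1 and female 1, at 58.2 and 80.7, which also had the lowest granule cell sums, 734 and 912. The match at 1 week was not particular to granule cells. Male 1 and female 1 also had the lowest 1-week sums for dividing cells (3153 and 3224), oligodendrocytes (3070 and 2228) and astrocytes (3241 and 3229). The part of granule cell content, or of other cell content, in the Chd7 values was not tested. Chd7 and Chd8 changes differed by 0.0077 ± 0.40 (exact permutation test, two-sided, p = 0.971), a standard error above that of every other pair.

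Of 31 paralog pairs listed, 12 had both members past the filter, and 8 differed in their change at an adjusted p of 0.00714. No share was computed for pairs of unrelated genes, so this count is not read as particular to paralogs. Taken singly, 45.9% of all genes passed for age, and for 35.9% the ages did not overlap. Besides the pairs given above, Smarcd1 minus Smarcd2 was -0.34 ± 0.13 and did not pass (exact permutation test, two-sided, p = 0.0524, adjusted p = 0.0698). With the probe sets of each gene averaged it was -0.69 (adjusted p = 0.0357). All 8 pairs reached the smallest p that the 210 assignments allow, so the p-values do not rank them. By size, Ezh1 minus Ezh2 was the widest of the 12, followed by Smarca1 minus Smarca5.

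**Figure D4:**
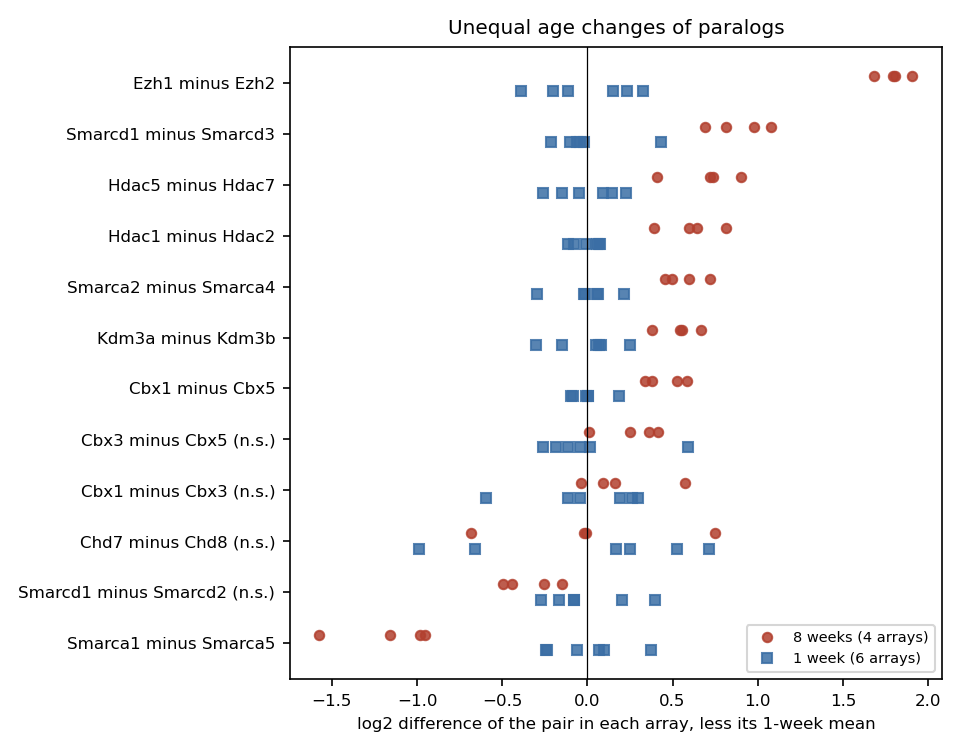
Difference of log2 intensity between the 2 genes of each of 12 pairs on every array, less the pair's 1-week mean (x axis), with 8-week arrays as circles above 1-week arrays as squares. The 8 pairs without the mark n.s. show no overlap of the ages, with Ezh1 minus Ezh2 furthest right, and Chd7 minus Chd8 spreads widely at both ages.

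Of the 18 genes with several tested probe sets, 11 had the same call on each and 7 did not, and only Cbx5 had opposite calls.

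**Figure D5:**
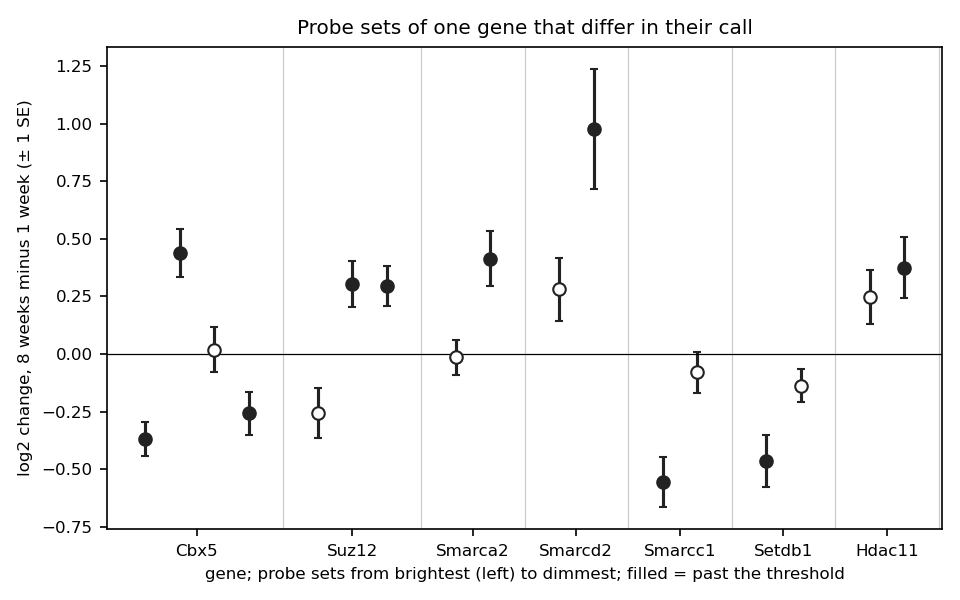
Log2 change with standard error at 8 weeks against 1 week (y axis) for each tested probe set of the 7 genes whose probe sets differ in their call (x axis, brightest first, filled points past the threshold). The filled Cbx5 points lie on both sides of 0, and the dimmer Smarcd2 probe set is the highest at 0.98.

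The 8 member genes too dim to test were Cbx7, Cbx8, Hdac9, Kdm4c, Kdm5a, Kdm8, Setd4 and Setd7. On their brightest probe sets Cbx7 read 42.3 to 53.4 at 8 weeks and 46.0 to 67.1 at 1 week, and Kdm5a read 66.0 to 90.3 at 8 weeks and 40.4 to 69.3 at 1 week. Hdac9 was the dimmest, at 4.73 to 8.79 at 8 weeks and 2.04 to 26.8 at 1 week. For all 8 the ages overlapped on that probe set. Cbx7, the PRC1 subunit, had a second probe set that read 111, 115, 68.4 and 127 at 8 weeks and 4.99 to 9.41 at 1 week, which the filter on mean intensity removed.

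No member probe set passed for the label at 8 weeks or for the interaction of age with label (limma; 0 of 68 in both), and 0 of 13576 did among all probe sets. At an unadjusted p under 0.05 there were 0 of 68 and 345 of 13576 for the label, and 3 of 68 and 759 of 13576 for the interaction. The label comparison sets 2 arrays against 2, and the interaction uses the 1-week labels that the transcripts oppose.

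Other genes of the same complexes were read from lists chosen with earlier results of these data known, and their counts stand beside 21.9% higher and 24% lower among all 8148 genes. Among 16 tested other Polycomb genes, 3 rose and 5 fell, with a median log2 change of -0.082. Rnf2, the ubiquitin ligase of PRC1, averaged 179 ± 14.5 at 8 weeks and 357 ± 49.7 at 1 week (log2 change -0.90 ± 0.11), Pcgf2 changed by -0.74 ± 0.14, tested because of its level at 1 week since its mean was 53.1 ± 21.0 at 8 weeks and 102 ± 13.6 at 1 week, and Phc1 by -0.58 ± 0.089, while Phf1, Ring1 and Aebp2 changed by 0.55 ± 0.14, 0.48 ± 0.089 and 0.49 ± 0.083. Ring1 and Rnf2, alternative ligases, thus moved in opposite directions, a contrast that was not tested as a pair. Ring1, and Dpf2 of the next list, lost their calls without the arrays that oppose their label (limma, adjusted p = 0.0709 and 0.126). Genes of the later lists that lost theirs in that fit are named below. Among 14 other BAF and PBAF subunits (median -0.27) 2 rose (Bcl7b 0.75 ± 0.087, Dpf2 0.40 ± 0.11) and 6 fell, among them Bcl11a at -0.60 ± 0.15, Dpf1 at -0.51 ± 0.10 and Pbrm1 at -0.46 ± 0.075. Actl6b, the BAF subunit of neurons, fell too (-0.45 ± 0.12), with overlapping ages; it is named after its value was seen.

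Among 17 tested genes of the NuRD, Sin3 and CoREST list (median -0.016) 3 rose and 5 fell. The list also holds genes of other complexes, such as Tbl1xr1 of NCoR complexes. Rcor2 was at -0.98 ± 0.17, Sin3b at -0.91 ± 0.072 and Mta2 at -0.48 ± 0.11, against Mbd2 at 0.41 ± 0.082, Tbl1xr1 at 0.27 ± 0.067 and Suds3 at 0.27 ± 0.072. The list of other histone methyltransferases also holds subunits of their complexes that are not enzymes, such as Wdr5. Of its 13 tested genes 0 rose and 9 fell, with a median log2 change of -0.47. The largest falls were Prmt1 at -1.04 ± 0.088, Prmt5 at -0.78 ± 0.083 and Wdr5 at -0.62 ± 0.093. Of 13 tested genes of the list of acetyltransferases and sirtuins 6 rose and 2 fell (median 0.079). That list also holds subunits that are not enzymes, such as Trrap and Brpf1. Kat2b averaged 503 ± 123 at 8 weeks and 211 ± 31.2 at 1 week (log2 change 1.15 ± 0.14), and its paralog Kat2a changed by -0.38 ± 0.07, in the other direction, although it read 0.14 without normalization. Sirt3 and Brpf1 changed by 0.59 ± 0.079 and 0.51 ± 0.12, and Trrap by -0.29 ± 0.10. Of 12 other ATPase remodelers and their partners (median 0.046) 2 rose (Baz1b 0.47 ± 0.10, Bptf 0.26 ± 0.094) and 3 fell (Ruvbl2 -0.51 ± 0.092, Baz2b -0.42 ± 0.076, Srcap -0.40 ± 0.11). Without normalization, under the median shift of 0.47, Dpf1, Pbrm1, Trrap, Ruvbl2, Baz2b and Srcap lay between 0.00921 and 0.22. Mta2, Tbl1xr1, Suds3, Trrap, Brpf1, Bptf, Baz2b and Srcap lost their calls without the arrays that oppose their label, as Ring1 and Dpf2 did.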

How the data were processed

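The deposited series table gave a linear intensity for every probe set and array; the authors' summarisation software and settings are not given in the sources used here. Groups came from the labels. The 64 array controls were left out, 22626 probe sets were quantile-normalized, and log2(value + 24) was fitted in R 4.3.3 with limma 3.58.1, with 1 coefficient per group of age and label. Of these, 13576 passed a filter at the 40th percentile of mean log2 value. Two-sided p-values were adjusted over all tested probe sets (Benjamini-Hochberg), with a threshold of 0.05. A fold change on this scale understates the change of dim probe sets. A symbol was single for 20380 probe sets, several for 691 and absent for 1555, and 4 probe sets with several symbols of these families were left out. A gene was read by its brightest probe set. Paralog changes were compared within arrays by an exact permutation test over the 210 assignments of arrays to ages, and adjusted over the 12 pairs. Their standard errors came from the spread within ages.

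Genes named are the PRC2 genes, the paralogs, the 10 largest rises and falls with ages apart, and up to 3 per direction of each list of other genes; exceptions are stated beside the value. Members and lists were chosen with earlier results of these data known. Alternatives were other normalizations, pseudocounts and filters, leaving out single arrays, a block for the replicate number, age alone, age alone without the arrays that oppose their label, an intensity trend and array weights; age alone without replicate 1 of either label at 1 week was chosen after seeing the data. Tested on simulated data with 200 of 22626 probe sets changed between ages, the fit recovered 51.5% of log2 changes of 0.5, 85.5% of 1 and 87.5% of 2. In the real data 46% of the tested probe sets passed, a setting unlike the simulated one, so these shares do not carry over directly. The number of arrays limits the precision.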

Additional observations from a re-analysis of the deposited data

Results flagged for a closer look

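In 8 of 90 groups of a gene at an age, 1 array lay further from the nearest other than Dixon's 95% critical value allows, and chance alone does so in about 1 in 20 groups. At 8 weeks these were Hdac5 at 982.5 on female 2 (the others 855 to 874), Hdac7 at 290.1 on female 1 (the others 229 to 234), Kdm3b at 610.2 on male 1 (the others 511 to 524) and Setd1a at 348 on male 2 (the others 302 to 310.0). At 1 week they were Cbx3 at 116 on male 1 (the others 66.7 to 81.6), Hdac11 at 1057 on male 2 (the others 703 to 817), Smarca1 at 351 on female 2 (the others 238 to 272) and Smarcc1 at 697 on female 3 (the others 454 to 536). In no gene did the arrays of 1 label all move one way with age and those of the other label the opposite way.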

How the results depend on the processing

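Of the 23 genes past the threshold for age, 13 kept direction and call under each alternative in which they could be tested: Cbx6, Chd6, Ezh1, Ezh2, Hdac2, Hdac5, Kdm2b, Kdm3a, Kdm7a, Setd3, Smarca1, Smarcd3 and Smarce1. Without normalization the median of all probe sets was shifted by 0.47, so the values that follow include that shift: 35 member probe sets were higher and 6 lower, and 8673 and 629 of all. Among values past the threshold in either fit, signs then turned for Cbx5 (0.18; 0.15 on a dimmer probe set), Chd8 (0.43), Hdac1 (0.18), Hdac3 (0.46), Hdac7 (0.33), Kdm3b (0.52), Kdm5b (0.27; dimmer 0.019), Setdb1 (0.059), Smarca2 (0.50), Smarcb1 (0.066), Smarcd1 (0.47), dimmer probe sets of Setd6 (0.15), Smarca4 (0.059), Smarca5 (0.45) and Smarcc1 (0.37), and Dpf1 (0.00921), Pbrm1 (0.062), Trrap (0.22), Kat2a (0.14), Srcap (0.025), Ruvbl2 (0.012) and Baz2b (0.018). Another 10 values past the threshold in neither fit turned too: Cbx2, Cbx3, Chd7, Kdm4b, Smarcad1 and Suz12, and dimmer probe sets of Cbx1, Hdac7, Setdb1 and Smarcad1. Scaled to 9 spike-in probe sets (median of all shifted by 0.14), 8 member probe sets and 1156 of all were lower, and 10 values turned, none of them past the threshold in either fit. Cbx5, Hdac1, Hdac6, Kdm1a, Setdb1, Smarca4, Smarcb1 and Smarcc1 lost their calls without normalization and with spike-in scaling, and kept them under median scaling, which ended the call of Kdm5b alone among the member genes and turned 2 values that never passed. No cause was tested. The labels do not say what arrays of the same replicate number share, and the main fit did not take the numbers as a pairing. Deviations of same-number arrays correlated at -0.025 to 0.19 (mean 0.086), over 0.1 in 5 of 13 pairs. Arrays of different numbers had a mean of -0.046, over 0.1 in 1 of 24 pairs. Of 10 arrays, 8 correlated best with one of their own number. Deviations were taken from the mean of each group, and with 2 arrays per group at 8 weeks they are mirror images. A positive correlation with an 8-week array of the same number therefore fixes a negative one with the other array of that group. These values are thus not independent of each other and do not decide whether the numbers mark a pairing. With a block for the replicate number, 12 member probe sets were higher and 19 lower. The replicate block left 0 paralog pairs past the threshold (Ezh1 minus Ezh2 1.83, adjusted p = 0.0833 in an exact permutation test), since its 36 assignments allow no p under 0.0556, and it changed the call of Kdm5b among member genes. Without the arrays that oppose their label, 1973 of all probe sets were lower, Cbx5, Kdm5b, Setd6 and Setdb1 lost their calls, Hdac11 gained one, 6 dimmer member probe sets and 10 named list genes lost theirs, and 0 pairs passed (Ezh1 minus Ezh2 1.80, adjusted p = 0.1), since 15 assignments allow no p under 0.0667. Leaving out 1 array moved the member counts to between 10 and 15 higher and between 18 and 23 lower, and the pairs to 8 or 9; Cbx3 minus Cbx5 passed without male 1 at 1 week (0.38, adjusted p = 0.0212) and Smarcd1 minus Smarcd2 without male 2 at 1 week (-0.39, adjusted p = 0.0317).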
